A study of Mus musculus with 3 samples.

Results

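Collagen chain genes encode the chains that wind together, 3 to a molecule, into the collagens of the extracellular matrix. They were taken as every gene whose symbol has the form Col, a number, a and a number, and which has at least 1 protein-coding transcript in the read-based transcript tables. This gave 44 of 55450 genes. The family was picked because several chains are read in 1 library only, so the levels by library that follow chose the members and are given as a description, with no test. The material was RNA of the chromatin fraction, depleted of ribosomal RNA, from primary bone-marrow-derived macrophages of C57BL/6J mice. Chromatin-associated RNA holds transcripts still being made or kept in the nucleus. All 3 libraries belong to 1 group: cells that received 100 ng/ml Lipid A, a TLR4 agonist, for 12 h, then a washout of 12 h, and were collected at 0 min of a second dose. No untreated sample is among them, so nothing here can be read as a response to Lipid A. The labels number the libraries as biological replicates 1 to 3 under a single donor identifier, without stating separate animals, and give neither sex nor age. Library preparation began with 500 ng of RNA for replicate 3, against 1000 and 250 ng for replicates 1 and 2.

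Procollagen chains are hydroxylated and glycosylated in the endoplasmic reticulum, fold into a triple helix with the help of chaperones, and are trimmed by propeptide proteases and cross-linked after export. Fibrillar chains form the banded fibrils of skin, bone and tendon, type IV chains the network of basement membranes, and fibril-associated chains bind to fibril surfaces. Fibroblasts and other mesenchymal cells are the main makers of fibrillar collagen. Macrophages are better known for taking collagen up and degrading it.

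Genes held 19428384 expected counts in replicate 3, 11802407 in replicate 1 and 17201281 in replicate 2. Expected counts are the deposited estimates of reads per gene, and TPM is the deposited level per transcript length, scaled to a fixed sum. Of these counts the 44 genes took 0.241% in replicate 3 (95% Wilson interval 0.239 to 0.243%), 0.00799% in replicate 1 (0.00749 to 0.00851%) and 0.00953% in replicate 2 (0.00908 to 0.0100%). Summed TPM of the family was 511 in replicate 3, 22.45 in replicate 1 and 35.9 in replicate 2. Macrophage markers were high in all 3 libraries: the 7 listed genes, among them Adgre1 and Csf1r, summed to 906 TPM in replicate 3, 770 TPM in replicate 1 and 1009 TPM in replicate 2. Replicate 3 stood apart from the others for a small set of genes: by the 10-fold rule used here, 358 genes were higher in it, against 4 in replicate 1 and 0 in replicate 2. Intervals and the floor for a count of 0 cover counting error only. That floor, 3 counts, equals 0.154 CPM in replicate 3, 0.254 CPM in replicate 1 and 0.174 CPM in replicate 2. These CPM are relative to library size alone, without the TMM scaling used for the ratios.

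**Figure D1:**
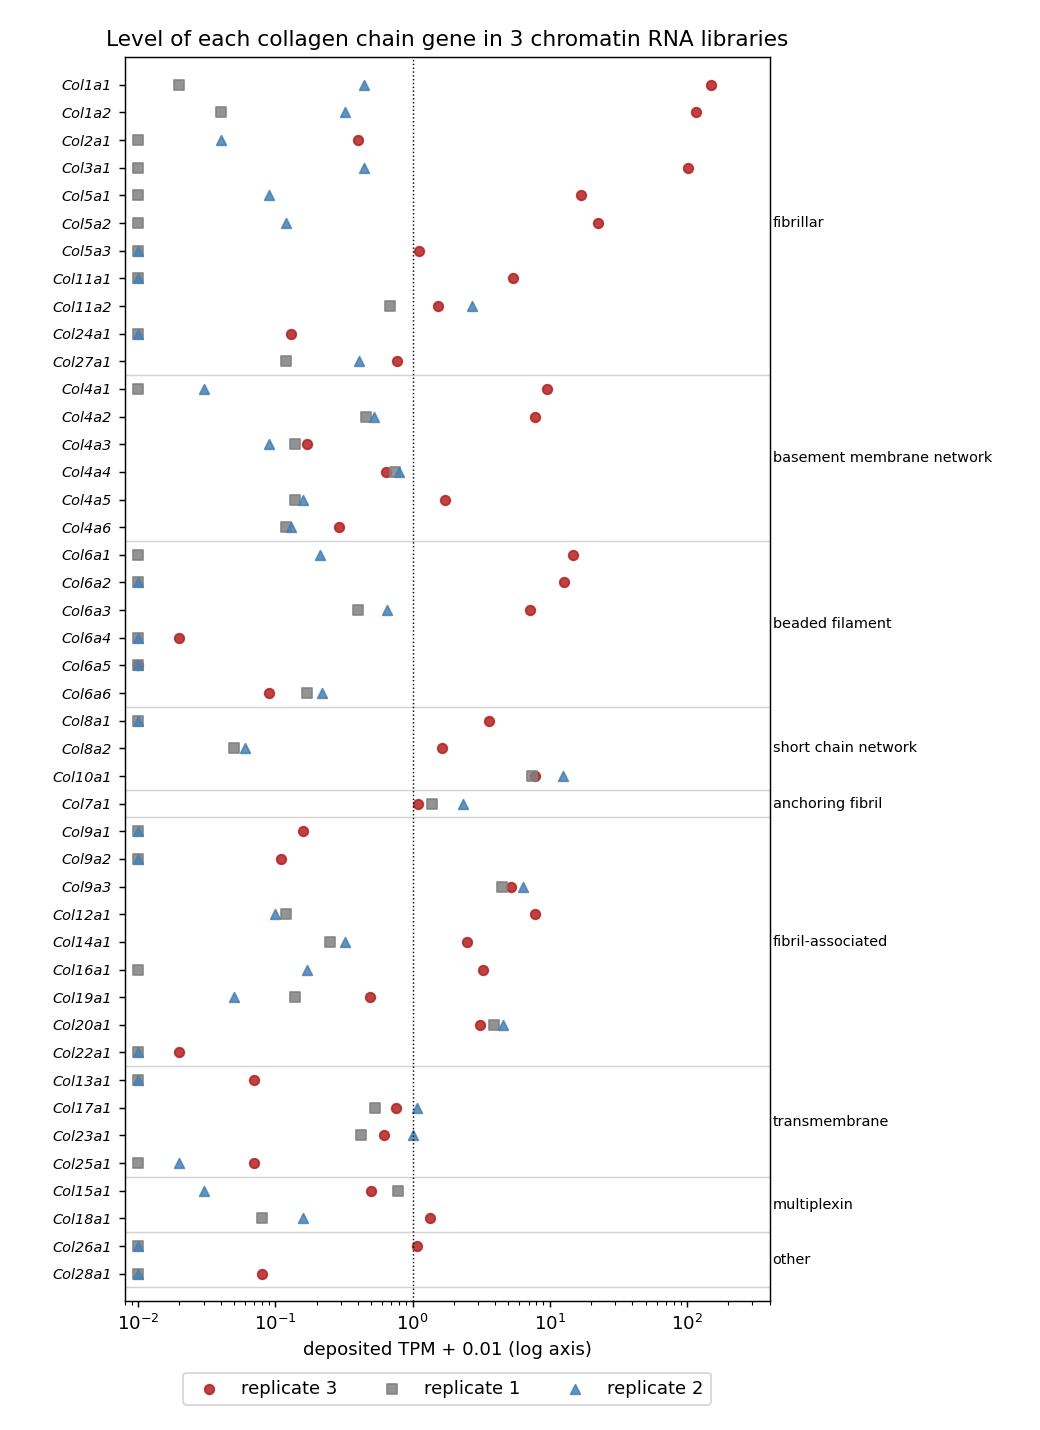
Deposited TPM of each of the 44 collagen chain genes, with 0.01 added, on a log axis, grouped by structural class; circles are replicate 3, squares replicate 1 and triangles replicate 2, and the dotted line marks 1 TPM. In replicate 3, 25 genes lie at 1 TPM or more, against 4 in replicate 1 and 7 in replicate 2.

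The family held chains that were read almost entirely in replicate 3, chains that were read at like levels in all libraries, and chains with few reads in any. At 1 TPM or more there were 25 of 44 members in replicate 3 (56.8%), 4 in replicate 1 (9.09%) and 7 in replicate 2 (15.9%). Among all annotated protein-coding genes the shares were 51.2%, 47.1% and 48.7% in the same libraries. The median member stood at 1.22 TPM in replicate 3, 0.02 TPM in replicate 1 and 0.10 TPM in replicate 2, beside 1.18, 0.59 and 0.80 TPM for the median protein-coding gene. Only 1 member had a count of 0 in replicate 3, against 21 in replicate 1 and 13 in replicate 2. The exception was Col6a5, a beaded filament chain, listed at 0 in all 3 libraries.

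By a fixed size rule, 18 of the 44 members were at least 10-fold higher in replicate 3 than in each of the other libraries, in CPM (counts relative to library size) scaled by TMM, with counts under 3 set to 3. Among the 21098 genes with 3 counts or more in any library it took 1.70%, and among the 14479 protein-coding ones 2.38%. Applied to the other libraries in the same way, the rule took 0 members in replicate 1, where it took 0.0190% of all genes and 0.0138% of protein-coding ones. It took 0 members in replicate 2, where the share was 0.00% for both. Nothing is read from this gap, because the levels by library picked the family. Only 27 members had enough counts in replicate 3 for the rule to be able to take them, so 9 could have been taken and were not. The 18 chains summed to 485 TPM in replicate 3, against 1.40 TPM in replicate 1 and 3.49 TPM in replicate 2. The other 26 summed to 26.4 TPM in replicate 3, against 21.05 TPM in replicate 1 and 32.4 TPM in replicate 2.

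Type I and type III collagen made up most of the difference. Col1a1 (ENSMUSG00000001506.10, chromosome 11, 94936224 to 94953042, mm10, + strand) encodes the alpha 1 chain of type I collagen, the main collagen of bone, skin and tendon. It had 149 TPM in replicate 3, against 0.01 TPM in replicate 1 and 0.43 TPM in replicate 2, from 14624, 1 and 34 expected counts. Its partner in the type I molecule, Col1a2 (chromosome 6, 4504814 to 4541544, + strand), had 116 TPM in replicate 3, against 0.03 TPM in replicate 1 and 0.31 TPM in replicate 2. Col3a1 (chromosome 1, 45311538 to 45349706, + strand), the only chain of type III collagen, had 102 TPM in replicate 3, against 0 and 0.43 TPM in replicates 1 and 2. These 3 genes held 71.6% of the family's counts in replicate 3, against 0.318% in replicate 1 and 4.82% in replicate 2. Among the 344 protein-coding genes that met the same size rule in replicate 3, they ranked 2, 4 and 5 by TPM, and members gave 32.1% of those genes' counts.

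The ratio of replicate 3 to replicate 2 was 351 for Col1a1 (95% interval from the counts 251 to 507), 377 for Col1a2 (249 to 602) and 309 for Col3a1 (206 to 487). These intervals overlap, but they rest on the gene tables. In the read-based tables the same ratios were 63.4 for Col1a1, 151 for Col1a2 and 279 for Col3a1. The gene-table ratio of Col1a1 to replicate 1 rests on 1 count there and was 8765, with an interval of 1573 to 346238; the read-based ratio was 94.1. Col3a1, at 0 in replicate 1, was at least 1738-fold higher in replicate 3. In replicate 3 the TPM of Col1a1 was 1.29 times that of Col1a2.

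The start regions of Col1a2 and Col3a1 are shown because these genes, with Col1a1, carry the largest levels in replicate 3, and because their short motifs differ. The sequences are RefSeq windows on GRCm38.p6 from 250 bases before to 50 bases after the start, read 5′ to 3′ along the gene: Col1a2 at chr6:4505368-4505667 (+) and Col3a1 at chr1:45311288-45311587 (+). Capitals mark exact matches, on either strand, to the CCAAT box (searched as CCAAT, which is ATTGG on the other strand), the TATA box (searched as TATAAA, on the other strand TTTATA) and the GC box (searched as GGGCGG, on the other strand CCGCCC).
Col1a2: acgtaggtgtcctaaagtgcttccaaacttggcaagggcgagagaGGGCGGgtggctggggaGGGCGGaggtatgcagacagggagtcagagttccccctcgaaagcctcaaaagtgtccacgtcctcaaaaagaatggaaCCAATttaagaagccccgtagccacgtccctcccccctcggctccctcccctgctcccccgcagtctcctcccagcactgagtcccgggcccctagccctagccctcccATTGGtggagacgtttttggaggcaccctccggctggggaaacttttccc
Col3a1: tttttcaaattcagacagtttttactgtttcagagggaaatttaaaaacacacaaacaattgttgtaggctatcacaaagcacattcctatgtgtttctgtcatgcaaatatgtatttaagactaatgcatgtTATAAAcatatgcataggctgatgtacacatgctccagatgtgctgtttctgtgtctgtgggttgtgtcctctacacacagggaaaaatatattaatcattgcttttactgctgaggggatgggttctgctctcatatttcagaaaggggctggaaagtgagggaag
The Col1a2 window held a CCAAT match 109 bases before the start, an ATTGG match at the start and 2 GGGCGG matches 205 and 188 bases before it. The Col3a1 window held a TATAAA match 117 bases before the start and neither of the other motifs. RefSeq windows were found for 35 of the 44 members and not for Col1a1, Col2a1, Col4a3, Col5a2, Col9a3, Col12a1, Col14a1, Col22a1 and Col26a1. Of the 15 windows of chains 10-fold higher in replicate 3, 12 held the GC box, 7 the CCAAT box and 1 the TATA box; of the 23 windows of other chains the counts were 11, 6 and 4. Among all 32851 windows of the same length, 35.7% held the GC box, 37.4% the CCAAT box and 13.6% the TATA box. Matches to different motifs may overlap, and a match describes letters, not use of a site.

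Of the 11 fibrillar chains, 7 were 10-fold higher in replicate 3, and the class held 83.8% of the family's counts there. Col5a1 and Col5a2 encode type V collagen, which joins type I in the same fibrils and limits their width. Col5a2 had 22.6 TPM in replicate 3, against 0 and 0.11 TPM in replicates 1 and 2. Col5a1 had 16.8 TPM in replicate 3, against 0 and 0.08 TPM in replicates 1 and 2. Col11a1, a minor fibrillar chain best known from cartilage, had 675 counts and 5.37 TPM in replicate 3 and 0 counts in both other libraries, at least 135-fold above replicate 1 and 184-fold above replicate 2 in these tables. With 833, 8 and 10 read-based counts in replicates 3, 1 and 2, the read-based ratios were lower, at 57.3 and 74.4. Col5a3 had 111 counts in replicate 3 and 0 in both others. Col2a1, the main cartilage fibrillar chain, had 19 counts in replicate 3, against 0 and 2 counts in replicates 1 and 2. Col11a2, a partner chain of Col11a1, had 1.53 TPM in replicate 3, against 0.67 TPM in replicate 1 and 2.68 TPM in replicate 2.

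**Figure D2:**
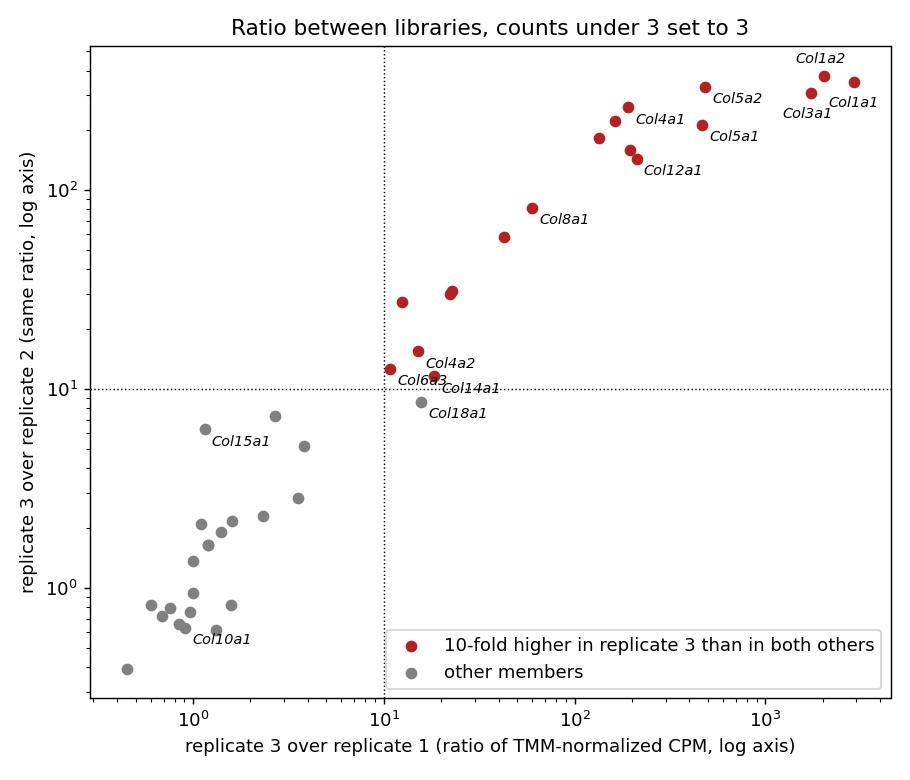
Ratio of TMM-normalized CPM of replicate 3 to replicate 1 (x) and to replicate 2 (y), both on log axes, for the 40 members with 3 counts or more in any library; counts under 3 were set to 3 and dotted lines mark 10-fold. The chains of types I and III lie at the upper right, Col6a3 and Col14a1 just inside the lines and Col18a1 just outside.

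Among the network and filament chains, replicate 3 again stood apart for some genes, and others had reads throughout. Of 6 basement membrane chains, Col4a1, Col4a2 and Col4a5 were 10-fold higher in replicate 3. Of 6 beaded filament chains, Col6a1, Col6a2 and Col6a3, the chains of the common form of type VI collagen around cells, were 10-fold higher. Col6a1 had 14.7 TPM in replicate 3, against 0 and 0.20 TPM in replicates 1 and 2. Col6a2 had 12.6 TPM in replicate 3 and 0 TPM in both others, at least 164-fold and 223-fold above them in the gene tables. With 1035, 9.07 and 39.1 read-based counts in replicates 3, 1 and 2, the read-based ratios were 62.9 and 23.7. Col6a3 differed from its partners in having 35 and 41 counts in replicates 1 and 2. It had 7.22 TPM in replicate 3, against 0.39 and 0.64 TPM in replicates 1 and 2, and its ratios were 10.8 (7.69 to 15.7) to replicate 1 and 12.6 (9.16 to 17.7) to replicate 2. For Col6a1 the interval to replicate 2 was 68.0 to 492, from 5 counts in that library, and it covers counting error only. Col6a3 was just inside the 10-fold rule. Col18a1, a multiplexin of basement membranes whose end fragment is endostatin, was just outside at 15.7-fold and 8.58-fold in the gene tables. With 244, 66.2 and 110 read-based counts in replicates 3, 1 and 2, its read-based ratios were only 2.03 and 1.98.

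Col8a1 and Col8a2, which form the hexagonal network of type VIII collagen in vessel walls and the cornea, were also 10-fold higher in replicate 3. Col8a1 had 3.58 TPM in replicate 3, against 0 TPM in both others, and Col8a2 had 1.62 TPM in replicate 3, against 0.04 and 0.05 TPM in replicates 1 and 2. Col8a2 had 168, 34 and 41 read-based counts in replicates 3, 1 and 2. Read-based ratios to replicates 1 and 2 were 8.82 and 3.43 for Col8a1, and 2.72 and 3.66 for Col8a2. Of the 9 fibril-associated chains, Col12a1, Col14a1 and Col16a1 met the rule. Col12a1, found along type I fibrils, had 7.79 TPM in replicate 3, against 0.11 and 0.09 TPM in replicates 1 and 2. Col16a1 had 3.25 TPM in replicate 3, against 0 and 0.16 TPM in replicates 1 and 2, and Col14a1 had 2.50 TPM in replicate 3, against 0.24 and 0.31 TPM in replicates 1 and 2. None of the 4 transmembrane chains, the 2 multiplexins, the anchoring fibril chain or the 2 others met it.

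The head-to-head pairs of type IV genes were not read alike. Col4a1 and Col4a2 encode the chains of the most widespread basement membrane collagen and are transcribed in opposite directions from 1 start region on chromosome 8, where their annotated ends overlap by 22 bases. Col4a1 had 9.51 TPM in replicate 3, against 0 and 0.02 TPM in replicates 1 and 2, from 959, 0 and 2 counts. Col4a2 had 7.79 TPM in replicate 3, against 0.45 and 0.51 TPM in replicates 1 and 2, from 833, 33 and 44 counts. The ratio of replicate 3 to replicate 2 was 391.6 for Col4a1 (108 to 3238) and 15.5 for Col4a2 (11.4 to 21.4). Both intervals cover counting error only, and that of Col4a1 rests on 2 counts in replicate 2. Read-based counts of Col4a1 were 1182 in replicate 3, against 14 and 30 in replicates 1 and 2, and those of Col4a2 were 1091 in replicate 3, against 70 and 122 in replicates 1 and 2. The read-based ratios to replicate 2 were 35.2 for Col4a1 and 7.98 for Col4a2. Their RefSeq windows (GRCm38.p6) at chr8:11312777-11313076 (− strand, Col4a1) and chr8:11312555-11312854 (+ strand, Col4a2) are shown because the pair shares them. Capitals mark the 78 bases held by both windows, as read from each strand.
Col4a1: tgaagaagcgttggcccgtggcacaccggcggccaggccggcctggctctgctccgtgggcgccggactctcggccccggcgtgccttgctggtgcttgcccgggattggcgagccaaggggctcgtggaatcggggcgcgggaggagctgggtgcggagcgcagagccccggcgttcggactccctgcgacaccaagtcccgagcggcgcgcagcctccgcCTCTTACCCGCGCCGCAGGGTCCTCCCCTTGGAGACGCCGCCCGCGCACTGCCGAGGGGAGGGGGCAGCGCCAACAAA
Col4a2: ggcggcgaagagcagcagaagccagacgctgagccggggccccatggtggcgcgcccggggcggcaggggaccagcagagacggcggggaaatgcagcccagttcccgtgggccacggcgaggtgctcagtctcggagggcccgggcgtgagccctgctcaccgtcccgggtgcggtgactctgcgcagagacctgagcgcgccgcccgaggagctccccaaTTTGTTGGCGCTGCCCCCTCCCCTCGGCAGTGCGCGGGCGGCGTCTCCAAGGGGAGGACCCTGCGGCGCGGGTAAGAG
The 78 shared bases hold 1 GC box match, which reads CCGCCC along Col4a1 and GGGCGG along Col4a2. Col4a5 and Col4a6, whose starts lie 1308 bases apart on chromosome X, also differed: Col4a5 had 167 counts in replicate 3, against 8 and 5 counts in replicates 1 and 2, while Col4a6 had 31 counts in replicate 3, against 8 and 11 in replicates 1 and 2. Col4a4 and Col4a3, chains of the kidney glomerulus with starts 71 bases apart, did not stand apart in replicate 3. Col4a4 had 0.63 TPM in replicate 3, against 0.73 and 0.79 TPM in replicates 1 and 2, and Col4a3 had 0.16 TPM in replicate 3, against 0.13 and 0.08 TPM in replicates 1 and 2. Col3a1 and Col5a2 lie tail to tail, 24614 bases apart, and both were high in replicate 3.

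Only 4 members reached 1 TPM in every library, 9.09% of the family, beside 46.1% of protein-coding genes. Values with ± are the mean and SD over the 3 libraries. Col10a1, the network-forming chain known as a marker of hypertrophic cartilage, was the highest of them at 9.26 ± 2.86 TPM (SD, n = 3), with 7.81 TPM in replicate 3, 7.42 TPM in replicate 1 and 12.6 TPM in replicate 2. Col9a3, a chain of the fibril-associated type IX collagen of cartilage, was at 5.37 ± 0.927 TPM, and its partners Col9a1 and Col9a2 had at most 6 and 3 counts. Col20a1, a fibril-associated chain, was at 3.86 ± 0.727 TPM. Col7a1, which forms the anchoring fibrils under skin epithelium, was at 1.60 ± 0.653 TPM. In TMM-normalized CPM, 7 members differed by less than 2-fold between any 2 libraries, with at least 10 counts in each: these 4 and Col4a4, Col11a2 and Col17a1, a transmembrane chain of hemidesmosomes. In TPM, Col11a2, Col7a1 (1.08 TPM in replicate 3, against 1.38 and 2.33 TPM in replicates 1 and 2) and Col17a1 (0.75 TPM in replicate 3, against 0.52 and 1.07 TPM in replicates 1 and 2) differed by more than 2-fold.

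The remaining 19 members met neither description and reached at most 1.33 TPM, in Col18a1. Of these, 10 had under 10 counts in every library. Col23a1, a transmembrane chain, had 0.61 TPM in replicate 3, against 0.41 and 1.00 TPM in replicates 1 and 2. Col15a1, a multiplexin of basement membranes, had 0.49 TPM in replicate 3, against 0.78 and 0.02 TPM in replicates 1 and 2, from 23, 12 and 1 counts. Col6a6, a beaded filament chain, was lower in replicate 3 in the gene tables only, at 0.08 TPM, against 0.16 and 0.21 TPM in replicates 1 and 2. Its gene-table ratio to replicate 2 was 0.39 (0.18 to 0.81), from 12 and 25 counts. With 194, 72.2 and 174 read-based counts in replicates 3, 1 and 2, the read-based ratios were 1.48 to replicate 1 and 0.995 to replicate 2.

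Of the 4 genes at 1 TPM throughout, 3 overlap another gene with reads. Col10a1 (chromosome 10, 34389981 to 34397085, + strand) lies wholly within Nt5dc1, a nucleotidase-domain gene on the other strand with 291, 202 and 246 counts in replicates 3, 1 and 2, and 1 of its 3 exons touches an Nt5dc1 exon. Col20a1 overlaps BX649560.1, a transcript on its own strand with 736, 523 and 757 counts, along 741 bases. Col9a3 overlaps Tcfl5 along 234 bases, and Tcfl5 had 5.10, 4.08 and 4 counts. No source used here says whether reads were counted by strand, so those of overlapping genes cannot be told apart. In the gene tables chondrocyte markers were near 0. Sox9, Acan, Comp, Matn1, Hapln1 and Matn3 summed to 0.96 TPM in replicate 3, 0.36 TPM in replicate 1 and 0.48 TPM in replicate 2. Of the 6, 4 were at 0 in replicates 1 and 2. Of those 4, Hapln1 had 490, 278 and 423 read-based counts in replicates 3, 1 and 2, and Sox9 had 116, 53.7 and 112. The others, Acan and Matn3, had at most 2 and 1 read-based counts.

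The read-based tables gave several chains reads that the gene tables did not. Col26a1, a chain first described in testis and ovary, had 482 read-based counts in replicate 3, 216 in replicate 1 and 477 in replicate 2, but 7, 0 and 0 expected counts. Of its read-based counts, 395, 184 and 395 belonged to 1 retained-intron transcript of 578 bases, in which 24.8% of all 31-base words also occur in transcripts of other genes. Col25a1, a transmembrane chain of neurons, had 280, 127 and 271 read-based counts in replicates 3, 1 and 2, against 6, 0 and 1 expected counts. Col22a1, found at tissue junctions, had 330, 172 and 336 read-based counts, against 1, 0 and 0 expected counts. These chains were thus read at like levels in all libraries in one table and hardly at all in the other.

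**Figure D3:**
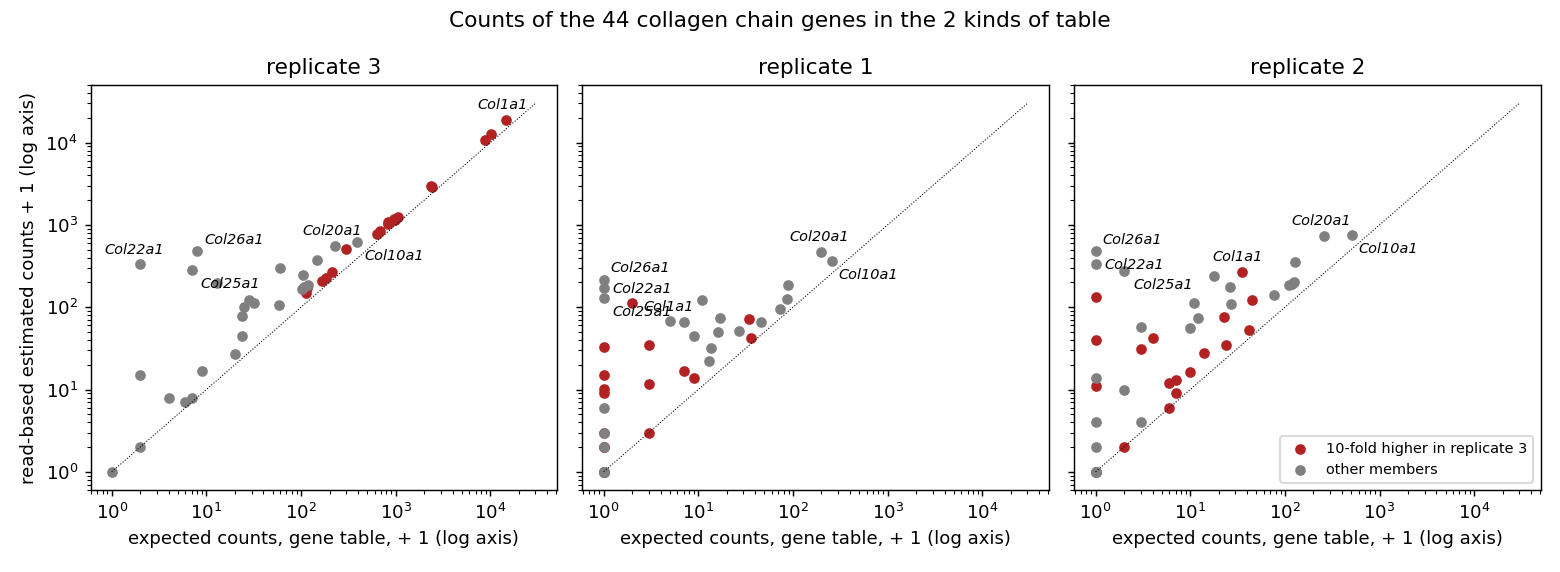
Expected counts of the gene table (x) against read-based estimated counts (y), each with 1 added, on log axes, for the 44 members in replicates 3, 1 and 2; red points are the 18 chains 10-fold higher in replicate 3 and the dotted line marks equal counts. Col26a1, Col25a1 and Col22a1 lie far above the line in every library, and Col1a1 lies above it in replicates 1 and 2 and close to it in replicate 3.

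The same gap appeared for Col1a1 in the libraries where it was low: its read-based counts were 18892 in replicate 3, 111 in replicate 1 and 266 in replicate 2, against 14624, 1 and 34 expected counts. Col8a1 had 506, 31.6 and 132 read-based counts, against 300, 0 and 0 expected counts. Counted from the read-based tables, 13 of the 18 chains remained 10-fold higher in replicate 3, beside 1.07% of 17318 protein-coding genes. Col4a2, Col4a5, Col8a1, Col8a2 and Col14a1 no longer met the rule.

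Retained-intron transcripts took little of the chains that were high in replicate 3. The share of a gene's read-based counts in transcripts annotated as retained intron was computed where the gene had such a transcript and 20 counts or more. It had a median of 0.237% over 24 members in replicate 3, 6.22% over 13 members in replicate 1 and 1.76% over 17 in replicate 2. Over all protein-coding genes the medians were 29.9%, 33.7% and 34.0% in the same libraries. Pooled over genes, retained-intron transcripts held 2.42% of the members' counts in replicate 3, 46.3% in replicate 1 and 45.6% in replicate 2. For protein-coding genes the pooled shares were 34.5%, 36.2% and 36.0%. The pooled share of members was thus above that of protein-coding genes in replicates 1 and 2, unlike the medians, and below it in replicate 3. Much of it in replicates 1 and 2 came from Col26a1 and Col25a1. Their retained-intron counts were 216 and 127 in replicate 1, and 477 and 270 in replicate 2. The gene tables gave both at most 1 expected count in these libraries. The pooled share without them was not computed. Among the 14 chains that were 10-fold higher in replicate 3 and could be counted, the median there was 0.126%, and each had under 5%. The 10 other chains had a median of 8.06% in replicate 3. The sets differ in depth and in annotated transcripts, and no test was made.

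Col1a2 had 0.457% of its 12774 read-based counts in retained-intron transcripts in replicate 3, against 57.3% of 75.8 counts in replicate 2. In counts these transcripts held 58.4 in replicate 3, against 9.50 in replicate 1 and 43.4 in replicate 2. In alignment-based transcript counts the share of Col1a2 was 0.103% in replicate 3 and 0% in replicate 2. Col1a1 had 0.00533% in replicate 3 and Col3a1 0.134%. The highest shares belonged to chains with reads in all 3 read-based tables: Col26a1 at 98.5%, 100% and 100% in replicates 3, 1 and 2, Col25a1 at 96.8%, 100% and 99.6%, and Col27a1, a fibrillar chain, at 81.0%, 88.3% and 89.96%. Col9a3 followed at 54.0%, 64.4% and 63.4%. Col7a1, with 6 retained-intron transcripts annotated, had 10.9%, 6.22% and 14.3%. These shares are of read-based counts, and alignment-based transcript counts gave lower ones for Col27a1 and Col9a3. There Col27a1 had 18.7% in replicate 3, and Col9a3 had 33.6%, 32.1% and 44.3% in replicates 3, 1 and 2. Col7a1 had 12.5%, 11.0% and 9.19% in the same order.

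**Figure D4:**
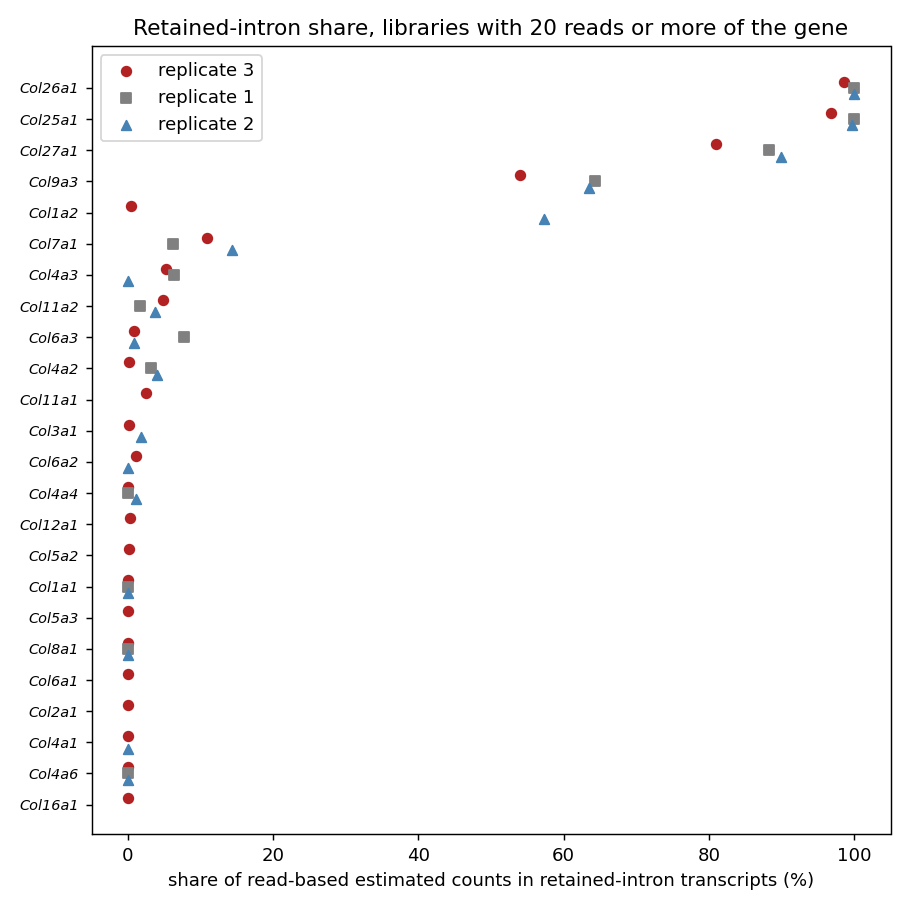
Share of read-based estimated counts in retained-intron transcripts (x, percent) for each member with such a transcript and 20 counts or more of the gene in at least 1 library; circles are replicate 3, squares replicate 1 and triangles replicate 2. Col26a1, Col25a1, Col27a1 and Col9a3 lie at 54.0% or more in every library plotted, and Col1a2 at 57.3% in replicate 2 but 0.457% in replicate 3.

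Of the 38 measured genes that modify, fold, export, trim or cross-link collagen, 10 were 10-fold higher in replicate 3 and 0 in replicate 1 or 2, beside the 2.38% of protein-coding genes that met the rule. Among genes for hydroxylation and glycosylation these were P4ha3, P3h4 and Plod2, 3 of 14, and the call of P4ha3 was lost in the read-based tables (3.73-fold and 1.59-fold over replicates 1 and 2). Among 9 folding and export genes they were Serpinh1, Fkbp10 and Creb3l1. Serpinh1, encoding the collagen-specific chaperone HSP47, had 59.85 TPM in replicate 3, against 0.04 and 0.18 TPM in replicates 1 and 2. Fkbp10, a prolyl isomerase that binds procollagen, had 9.21 TPM in replicate 3, against 0.04 and 0.03 TPM in replicates 1 and 2. Of 15 genes for propeptide cleavage and cross-linking they were Adamts2, which removes the amino-terminal propeptide of fibrillar collagen, and the lysyl oxidase genes Lox, Loxl1 and Loxl2. In the read-based tables Adamts2 (1.97-fold and 1.91-fold) and Loxl2 (1.76-fold and 1.75-fold) lost the call, which left 7 of the 10. Loxl1 had 7.63 TPM in replicate 3, against 0.28 and 0.26 TPM in replicates 1 and 2.

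Of the 38 genes, 21 stood at 1 TPM or more in every library, beside 46.1% of protein-coding genes. P3h3, a prolyl 3-hydroxylase family gene, had 93.5 TPM in replicate 3, against 50.7 and 59.1 TPM in replicates 1 and 2. Colgalt1, which adds galactose to hydroxylysine, had 65.8 TPM in replicate 3, against 54.1 and 84.5 TPM in replicates 1 and 2. Plod1, a lysyl hydroxylase, had 57.2 TPM in replicate 3, against 58.2 and 63.7 TPM in replicates 1 and 2. The general chaperone gene Hspa5 had 62.5 TPM in replicate 3, against 38.35 and 37.6 TPM in replicates 1 and 2. P4hb, listed here among the hydroxylation genes, had 33.8 TPM in replicate 3, against 5.90 and 7.42 TPM in replicates 1 and 2. Its ratios to replicates 1 and 2 were 4.84 and 4.48.

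Markers of fibroblasts moved with the collagen chains. Of the 8 listed, Pdgfra, Pdgfrb, Thy1, Dcn, Lum, Postn and Pdpn were 10-fold higher in replicate 3 in the gene tables and Fbn1 was not, beside 2.38% of protein-coding genes. Of these 7, 5 kept the call in the read-based tables; Pdgfra was 3.77-fold and 4.49-fold higher, and Thy1 1.92-fold and 1.54-fold. The list summed to 108 TPM in replicate 3, against 1.72 TPM in replicate 1 and 1.18 TPM in replicate 2. In the gene tables none was at 0 in replicate 3, against 5 of 8 in replicate 1 (Pdgfra, Thy1, Dcn, Lum and Postn) and 3 of 8 in replicate 2 (Pdgfra, Thy1 and Dcn). Thy1 had 16.9 read-based TPM in replicate 3, against 9.22 and 11.1 TPM in replicates 1 and 2, and Pdgfra and Dcn also had read-based counts in replicates 1 (57.7 and 8.0) and 2 (78.5 and 27.1), so these counts of 0 hold for the gene tables only. Of 10 matrix proteins that accompany collagen, 7 were 10-fold higher in replicate 3 in both kinds of table, among them Sparc, the collagen-binding glycoprotein, and Bgn, a small proteoglycan at 83.2 TPM in replicate 3, against 0.06 and 0.36 TPM in replicates 1 and 2; the 10 share Dcn, Lum, Postn and Fbn1 with the fibroblast list. All 7 genes of a fetal growth and imprinted list were 10-fold higher too, beside the 1.70% of all genes that met the rule. They were Igf2, H19, Dlk1, Meg3, Peg3, Mest and Cdkn1c. Of these, 4 (all but Dlk1, Meg3 and Mest) kept the call in the read-based tables, beside 1.07% of protein-coding genes. The 7 summed to 286 TPM in replicate 3, against 2.76 and 3.74 TPM in replicates 1 and 2. This list, like the others, was chosen with earlier results of these data known, so nothing is read from its share. Of 6 smooth muscle and pericyte markers Acta2 alone met the rule. That list summed to 41.8 TPM in replicate 3, against 2.49 and 3.82 TPM in replicates 1 and 2. Acta2 and Tagln held most of the sum in replicate 3, at 23.6 and 16.9 TPM. Each of the others had at most 0.52 TPM there. The part of any of these cells in the collagen levels was not tested. In bulk RNA, fewer cells of a type and less RNA per cell cannot be told apart.

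Lists of other cell types showed no gene meeting the rule. Of 8 osteoblast markers, Sp7, Bglap, Bglap2, Ibsp and Alpl were at 0 in all 3 libraries, and the list summed to 7.30, 4.88 and 5.56 TPM in replicates 3, 1 and 2, mostly Runx2. Endothelial markers (6 genes) summed to 7.10, 11.7 and 4.82 TPM in replicates 3, 1 and 2, with Tie1 at 0 throughout. Epithelial markers (6) summed to 0.28 TPM in replicate 3 and 0 in both others, and adipocyte markers (4) to 0 TPM in replicates 3 and 1 and 0.03 TPM in replicate 2. Schwann cell markers (4) summed to 1.44, 0.65 and 1.75 TPM in replicates 3, 1 and 2, and skeletal muscle markers (5) to 0.41, 0 and 0.13 TPM. All these values, those of 0 included, hold for the gene tables only. Tie1 had 104, 47.6 and 83.3 read-based counts in replicates 3, 1 and 2, and the adipocyte marker Plin1 88.1, 40.7 and 112. The epithelial markers Epcam and Cdh1 had 12, 7 and 15, and 49.5, 7.31 and 55.2 read-based counts.

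**Figure D5:**
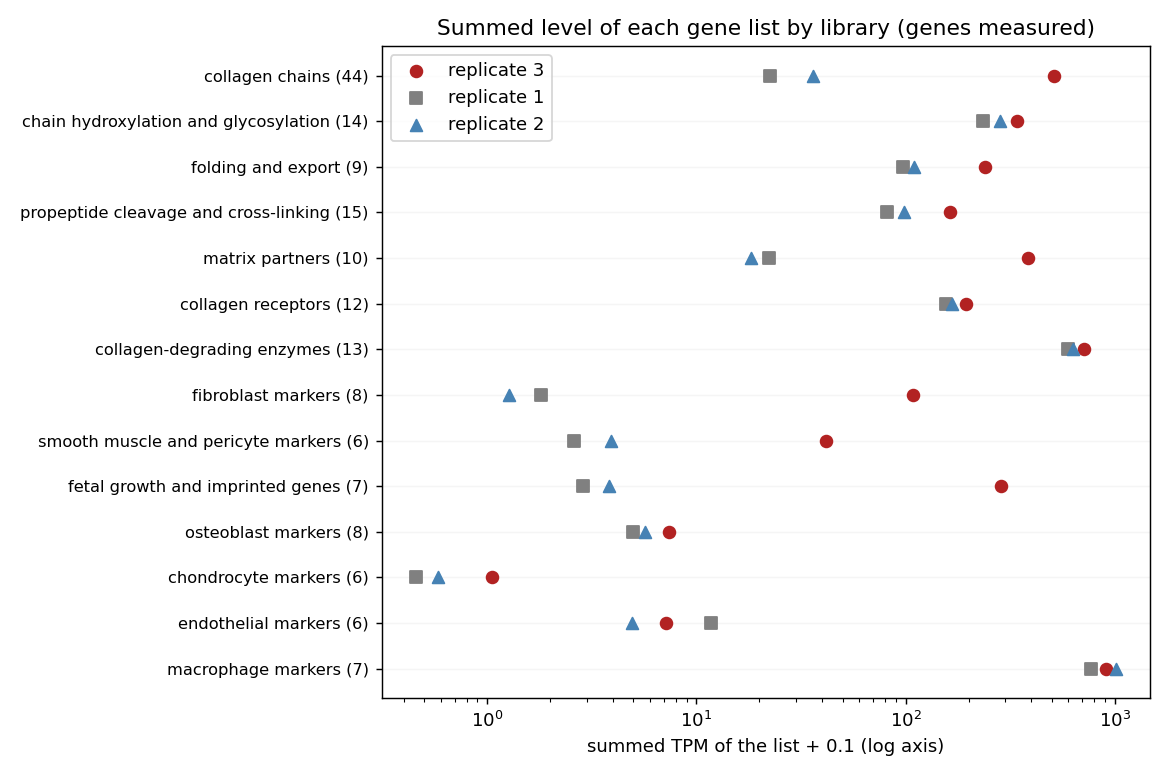
Summed TPM of each gene list, with 0.1 added, on a log axis; circles are replicate 3, squares replicate 1 and triangles replicate 2, and the number of genes measured stands in brackets. Collagen chains, matrix partners, fibroblast markers and the fetal growth and imprinted list lie far to the right in replicate 3, while the sums for macrophage markers, collagen receptors and collagen-degrading enzymes lie close together in all 3 libraries.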

How the data were processed

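Total RNA-seq of the chromatin fraction of mouse macrophages was analysed in 3 libraries of 1 group. The deposited README files say that a transcriptome alignment (mm10, GENCODE M21) gave the gene tables and the alignment-based transcript tables, while the read-based transcript tables came straight from reads. Aligner, versions and strandedness are not stated there. Expected counts (reads per feature as estimated, not normalized) and TPM values (per length, over all rows, including tRNA and spike-in rows) were deposited by the authors, 1 table per library, unpooled. Rows without a gene were left out (1.31%, 0.476% and 0.240% of expected counts in replicates 1 to 3).

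Expected counts were rounded for TMM scaling (edgeR 4.0.16) and, as an alternative, size factors (DESeq2 1.42.0) in R 4.3.3; neither tool was used to test. Ratios are of TMM-normalized CPM between single libraries, with counts under 3 set to 3 for the 10-fold rule; no libraries were pooled. Intervals for ratios are exact Clopper-Pearson and for shares Wilson, both 95%. With 1 group and members picked by these levels, no p-values are given. Python 3.11.15, pandas 2.3.3, scipy 1.17.1 and matplotlib 3.10.9 did the rest, and the 10-fold rule was tested on simulated data. Promoter windows are RefSeq's. Of 39 listed maturation genes 38 were found.

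Members, lists and rules were chosen with earlier results of these data known. Named are members at 1 TPM in every library, the highest of each class, those next to the threshold, adjacent genes, those whose tables differ most and those with the highest retained-intron shares; some are left out.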

Additional observations from a re-analysis of the deposited data

How the results depend on the processing

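The number of members at 1 TPM or more in every library was 4, and moved to 13 with read-based TPM (3 of the 4 among them), to 10 when TPM was rescaled to protein-coding and long non-coding genes of the nuclear genome, and to 12 when 10 expected counts in every library replaced the TPM limit. It ran from 4 to 5 with 1 replicate left out. The collagen share of counts in replicate 3, 0.241%, was 0.185% in read-based counts, 0.358% of protein-coding counts and 0.0512% of TPM. The 18 members 10-fold higher in replicate 3 became 13 in read-based counts, 19 at 4-fold and 18 to 19 without replicate 1 or 2; the 10 maturation genes became 7, 13 and 10. Library-size CPM, DESeq2 size factors and 0.1 CPM added in place of the floor each left 18 and 10. The median retained-intron share of 0.237% was 0.260% at 50 counts, 0.885% in TPM and 0% in alignment-based counts. The causes were not tested.

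No paired analysis was possible because the labels give 1 group only. Without a second group, replicate 3 cannot be told apart from its starting RNA, its culture or its library, and shares of chains with few counts in replicates 1 and 2 are limited by depth.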

Other observations

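Of 12 collagen receptor genes, Ddr1, Ddr2 and Mrc2 were 10-fold higher in replicate 3, beside 2.38% of protein-coding genes, and all 3 were so in the read-based tables too. Ddr2, a receptor kinase for fibrillar collagen, had 5.53 TPM in replicate 3, against 0.01 and 0 TPM in replicates 1 and 2. Lair1, an inhibitory collagen receptor of leukocytes, had 77.6 TPM in replicate 3, against 91.1 and 99.8 TPM in replicates 1 and 2, and Mrc1, the macrophage mannose receptor, had 54.1 TPM in replicate 3, against 33.7 and 38.0 TPM in replicates 1 and 2. Itgb1, the shared chain of the collagen-binding integrins, had 44.1 TPM in replicate 3, against 27.3 and 24.1 TPM in replicates 1 and 2.

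Of 13 genes for collagen-degrading enzymes and their inhibitors, Mmp2, Timp1 and Timp3 (23.1%) were 10-fold higher in replicate 3, beside 2.38% of protein-coding genes. In the read-based tables Mmp2 kept the call, while Timp1 was 2.77-fold and 2.73-fold higher than in replicates 1 and 2, and Timp3 2.88-fold and 4.41-fold. Mmp2, a gelatinase, had 15.3 TPM in replicate 3, against 0.44 and 0.24 TPM in replicates 1 and 2. The cathepsin gene Ctsb was the highest at 442 TPM in replicate 3, against 396 and 484 TPM in replicates 1 and 2, followed by Ctss at 93.9 TPM in replicate 3, against 126 and 76.65 TPM in replicates 1 and 2. Mmp14, a membrane collagenase, had 71.05 TPM in replicate 3, against 56.2 and 49.4 TPM in replicates 1 and 2.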
